A study of Rattus norvegicus with 10 samples.

Results

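This account covers the genes that carry pyruvate and glutamine carbon into the tricarboxylic acid (TCA) cycle and around it, in rat nucleus pulposus cells with less Bnip3. The members are the genes on a list of 37 enzymes and enzyme regulators whose symbol the array platform's annotation gives to a probeset. Of these, 36 were measured, each by 1 probeset, out of 15037 named genes in all, and the fumarase gene Fh is not analysed here. The list spans the pyruvate dehydrogenase (PDH) complex with its kinases and phosphatases, the cycle itself, malic enzymes, and the enzymes that pass glutamate to 2-oxoglutarate.

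The samples were nucleus pulposus cells, from the gel-like core of the intervertebral disc, of male Sprague Dawley rats aged 3 to 4 months with a weight of 300 g per the labels. Control cells were transduced with lentivirus carrying the pLKO.1 control hairpin (ShCtrl, 5 arrays, numbered 1 to 5 in their titles), and the others with lentivirus against the mitophagy receptor BNIP3 (ShBNIP3, 5 arrays, numbered 6 to 10). All cells were thus transduced, and RNA was taken 4 days later and hybridised to whole-transcript arrays. Values are log2 levels as the authors normalized them, and differences are ShBNIP3 minus ShCtrl. Whether each array had its own culture or animal is not stated in the labels, and p-values therefore rest on sample-to-sample spread that may be technical.

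PDH turns pyruvate, the end product of glycolysis, into acetyl-CoA inside mitochondria. It is switched off when PDH kinases phosphorylate its E1 alpha subunit and on again when PDH phosphatases remove the phosphate. The cycle oxidises acetyl-CoA, and succinate dehydrogenase is both a step of it and complex II of the respiratory chain. Glutamine feeds the same cycle through glutamate, which glutamate dehydrogenase or transaminases convert to 2-oxoglutarate. Nucleus pulposus cells live with little oxygen and are known as strongly glycolytic, and BNIP3 marks mitochondria for removal by autophagy.

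Array medians lay between 6.18 and 6.22. Each array correlated with the others of its group at a mean Pearson r of 0.992, apart from ShCtrl array 4 (0.983) and ShBNIP3 array 10 (0.986), and the counts of genes that passed are therefore also given without these 2 arrays. Both were picked from these data, and leaving out a far value narrows the spread, so p-values without either may be too small. Bnip3 lay at 14.29, 14.29, 13.94, 15.97 and 14.54 on ShCtrl arrays 1 to 5 and at 11.14, 11.26, 10.59, 11.31 and 12.68 on ShBNIP3 arrays 6 to 10. The groups did not overlap, and the hairpin left 10.8% of the control level (log2 -3.21, SE 0.40, limma adjusted p = 0.0002). An exact permutation test of the group means (two-sided) gave p = 0.0079, its lowest possible value with these group sizes. A value was at background when it was not above the 95th percentile of the antigenomic control probesets. Of 12 measured nucleus pulposus markers, 3 fell (Col2a1 1.59-fold, Car3 2.45-fold and Basp1 1.39-fold) and 1 rose (Cdh2, at background on all 5 ShCtrl arrays and at least 1.57-fold higher in ShBNIP3). Acan and Col2a1 were above background on all arrays, and Krt8, Krt18, Krt19, Shh and Noto were at background on all arrays. The summed level of these markers (log2 of the sum) was 13.5 to 14.6 in ShCtrl and 12.3 to 13.8 in ShBNIP3. Its largest part was Acan, which did not pass (log2 -0.90, limma adjusted p = 0.19). Of 8 annulus and fibroblast markers 4 fell (Col1a1, Col1a2, Col3a1 and Thy1). The summed level was 19.8 to 19.9 in ShCtrl and 19.4 to 19.5 in ShBNIP3, most of it Col1a1 and Col1a2. Without passing, Pdgfra (log2 0.52) and Fap (0.48) were higher and Scx (-0.23) was lower, and Tnmd was at background on all arrays. Of 10 macrophage and leukocyte markers 3 rose (Cd68, Cd14 and Cd53), and 8, among them Cd53, Ptprc, Csf1r and Itgam, were at background on all arrays. The summed level of the 10 was 11 to 11.7 against 12 to 13.2, nearly all of it Cd14 (10.83 to 11.57 against 11.73 to 13.14). Of 9 skeletal muscle markers 8 were at background on all arrays, among them Myh2, which passed as higher (limma adjusted p = 0.0466), while Des fell 5.79-fold. The summed level was 12.5 to 14 against 10.4 to 11.2, nearly all of it Des (12.46 to 13.94 against 10.25 to 11.03). All 8 endothelial markers were at background on all arrays. The part of these markers in the results below was not tested, and in RNA from whole cultures fewer cells of a type and less RNA per cell cannot be told apart.

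The members changed in both directions and by small amounts. Of 36, 12 passed the limma test at an adjusted p of 0.05 (33.3%), where 15.5% of all 23188 probesets and 17.1% of those with a gene name did. At an unadjusted p below 0.05 there were 8 higher and 8 lower members, and 26.7% of all probesets. Almost all members are bright, with 35 of 36 in the brighter 50% of probesets, where 28.0% passed. Lower were 7 members (Sdhc, Me1, Pdha1, Got2, Got1, Idh3a and Glud1), by 1.27-fold to 1.95-fold, against a background of 7.87% of probesets that fell. Higher were 5 (Idh1, Dld, Ogdh, Suclg2 and Sucla2), by 1.30-fold to 1.64-fold, against 7.61% that rose. The median difference of the members was -0.07, and 0.02 over all probesets. No member passed with a change of at least 2-fold, as 4.18% of probesets did. The values of both groups were fully separated for 12 members (33.3%) and for 12.9% of probesets. This share and that at an unadjusted p were not computed for the brighter 50%, which holds 35 of 36 members. Without ShCtrl array 4 and ShBNIP3 array 10, 9 members fell and 4 rose, where 10.1% and 9.84% of probesets did. All 7 falls and 3 of the 5 rises were among these. With single arrays left out, 7 to 13 members passed. The total was 7 without ShBNIP3 array 7 or 8, and the rises numbered 2 or 3 without any one of ShCtrl arrays 1, 2, 4 and 5 or ShBNIP3 arrays 6 to 9.

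**Figure D1:**
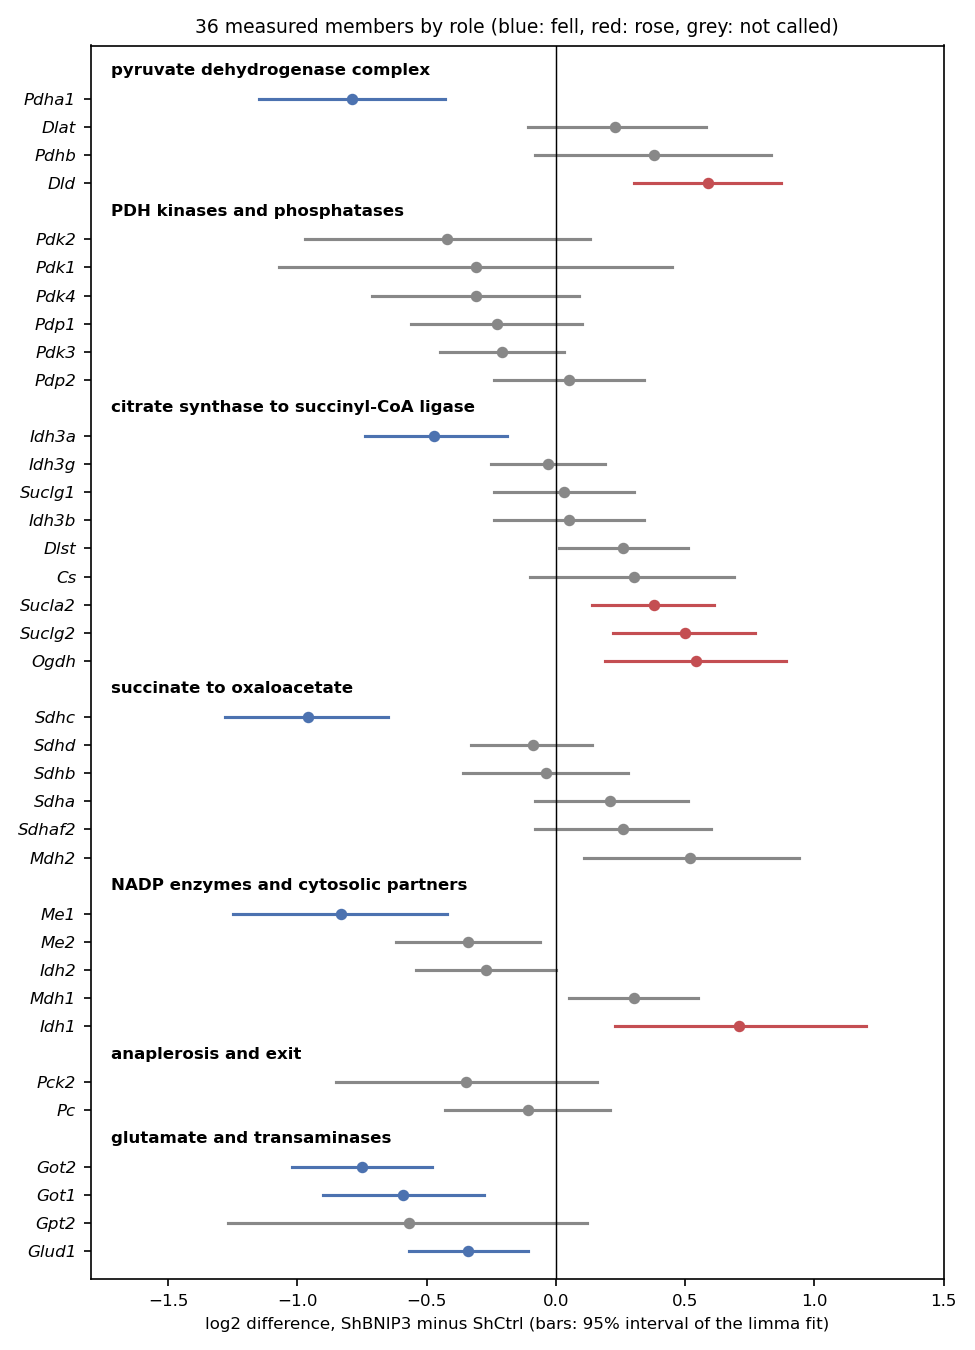
The log2 difference between ShBNIP3 and ShCtrl (x axis) is plotted for each of the 36 measured members (y axis), grouped by role, with the 95% interval of the limma fit as a bar. The 7 members that fell lie between -0.96 and -0.34 and the 5 that rose between 0.38 and 0.71, and within the PDH complex, the cycle and the NADP enzymes falls and rises lie side by side.

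The PDH complex changed unevenly. Pdha1, the E1 alpha subunit that the kinases phosphorylate, fell 1.73-fold, and Dld, the E3 subunit that PDH shares with other 2-oxoacid dehydrogenases, rose 1.5-fold. Pdha1 lay at 13.16, 13.23, 13.49, 13.28 and 13.54 on ShCtrl arrays 1 to 5 and at 12.13, 12.35, 12.89, 12.43 and 12.94 on ShBNIP3 arrays 6 to 10. Every ShBNIP3 array was below every ShCtrl array, with arrays 8 and 10 the closest to the controls (log2 -0.79, SE 0.17, limma adjusted p = 0.00633). Pdhb, the E1 beta subunit that pairs with Pdha1 in the same enzyme, lay at 9.87, 10.10, 10.28, 9.71 and 10.30 in ShCtrl and at 10.73, 10.20, 10.82, 10.68 and 9.72 in ShBNIP3. Here ShBNIP3 array 10 was at the level of the lowest control and the groups overlapped (log2 0.38, 95% interval -0.08 to 0.83, limma adjusted p = 0.288). Without array 10 the difference of Pdhb was 0.55 (limma adjusted p = 0.045), and without arrays 4 and 10 it was 0.47 (limma adjusted p = 0.063).

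The gap between the E1 subunits within each array shows this uneven change directly. Pdha1 minus Pdhb was 3.28, 3.12, 3.21, 3.56 and 3.24 on the ShCtrl arrays and 1.40, 2.15, 2.07, 1.75 and 3.22 on the ShBNIP3 arrays. It narrowed on arrays 6 to 9, while array 10 lay within the control range. The mean change was -1.17, a 2.25-fold shift in the ratio (exact two-sided permutation p = 0.024, Benjamini-Hochberg adjusted p = 0.044 over the 13 pairs compared). With 1 array left out, the adjusted p was over 0.05 without ShCtrl array 1, 3 or 5 or ShBNIP3 array 8 or 9 (at most 0.059). Dld had 12.22, 12.05, 11.96, 11.78 and 11.99 in ShCtrl and 12.45, 12.33, 12.71, 12.59 and 12.84 in ShBNIP3. All ShBNIP3 values were higher than all ShCtrl values (log2 0.59, SE 0.13, limma adjusted p = 0.00883). Dlat, the E2 core of the complex, had a difference of 0.23 (95% interval -0.11 to 0.58, limma adjusted p = 0.403).

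**Figure D2:**
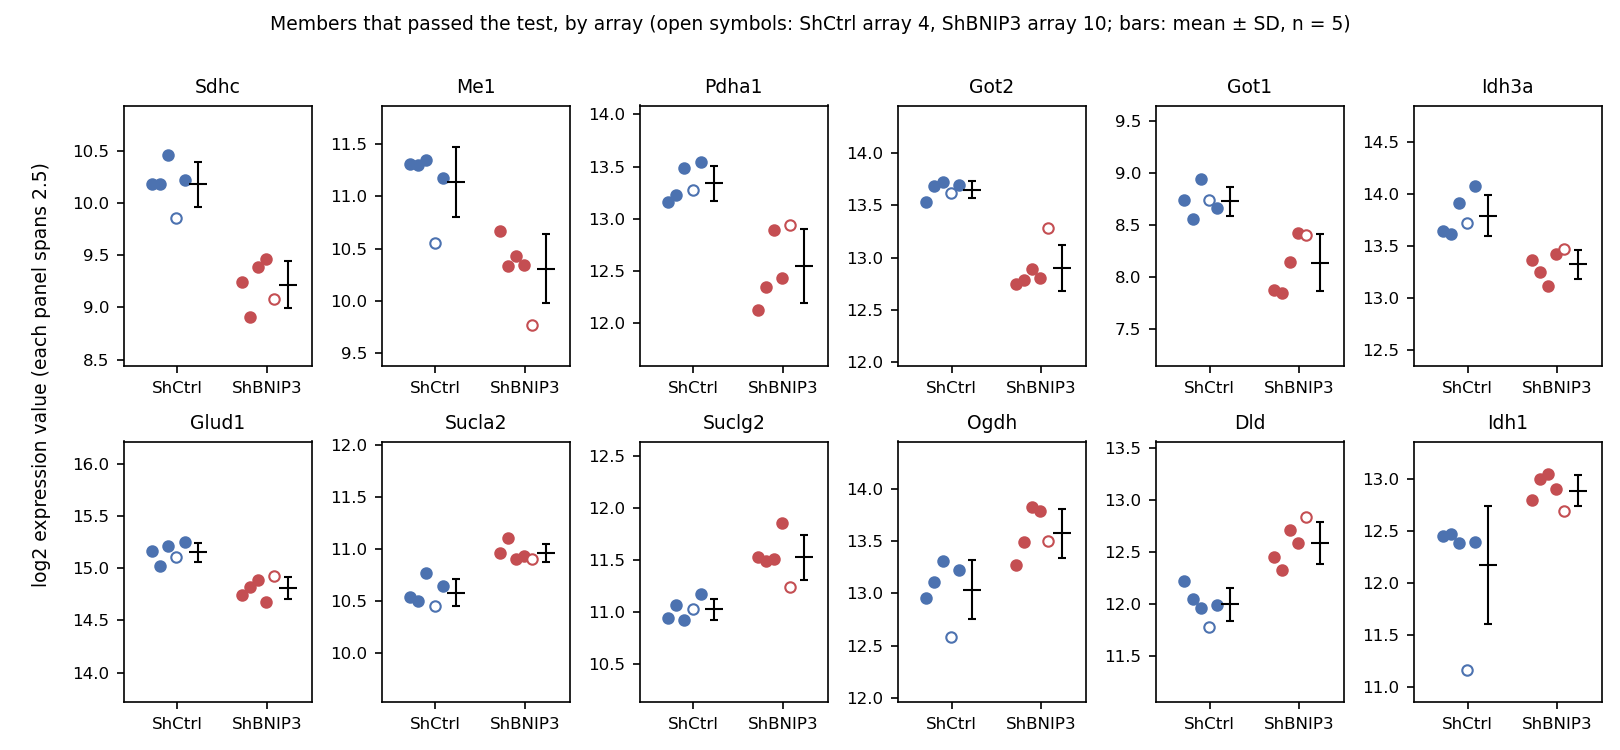
The log2 level (y axis, a span of 2.5 in each panel) is plotted for each array of ShCtrl and ShBNIP3 for the 12 members that passed the test, with the mean ± SD beside the points (n = 5). The groups overlap in Me1 and Ogdh, and open symbols mark ShCtrl array 4, which is far below the other controls in Idh1 (11.17) and Me1 (10.55), and ShBNIP3 array 10.

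None of the PDH kinases and phosphatases passed the test (0 of 6 in limma, and 0 with an unadjusted p below 0.05). Among all probesets 15.5% passed, and 26.7% had an unadjusted p below 0.05. The share that passed was 28.0% among the brighter probesets described above. Whether 0 of 6 differs from these shares was not tested. Pdk1, a kinase gene that HIF is known to induce, lay at 12.06, 12.12, 12.58, 14.14 and 12.66 in ShCtrl and at 11.92, 12.11, 12.46, 12.44 and 13.10 in ShBNIP3. Array 4 stood 1.78 above the other ShCtrl arrays and array 10 stood 0.87 above the other ShBNIP3 arrays. These are also the arrays with the highest Bnip3 of their groups. The difference of Pdk1 was -0.31 (95% interval -1.07 to 0.45, limma adjusted p = 0.656), and 0.05 without array 4. Pdk2, the most widely expressed kinase of the family, had 9.42, 9.71, 9.43, 8.15 and 9.48 in ShCtrl and 8.54, 8.92, 9.06, 8.96 and 8.60 in ShBNIP3. On array 4 it was 1.36 below the other controls, the opposite side from Pdk1. Without array 4, the far value, the difference of Pdk2 was -0.69 (limma adjusted p = 0.0048), and without arrays 4 and 10 it was -0.64 (limma adjusted p = 0.0071). In the fit to all arrays its difference was -0.42 (limma adjusted p = 0.328).

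Pdk1 minus Pdk2 was 2.65, 2.40, 3.14, 5.99 and 3.18 in ShCtrl and 3.38, 3.19, 3.40, 3.48 and 4.49 in ShBNIP3. The mean change over all arrays was 0.11 (exact permutation adjusted p = 0.90), and without array 4 it was 0.74 (adjusted p = 0.029). Pdk3 had a difference of -0.21 (95% interval -0.45 to 0.03, limma adjusted p = 0.257). Pdk4, the kinase gene known to respond to fasting and fatty acids, was at background on all 10 arrays, so no fold is given. The phosphatase genes Pdp1 and Pdp2 differed by -0.23 (95% interval -0.56 to 0.10) and 0.05 (95% interval -0.24 to 0.34), with limma adjusted p-values of 0.381 and 0.876.

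From citrate synthase to succinyl-CoA ligase, 3 of 9 members rose and 1 fell, where 7.61% and 7.87% of all probesets did and 28.0% of the brighter 50% passed. Without arrays 4 and 10, the rises of Ogdh and Sucla2 did not pass. The rises were in Ogdh, the E1 subunit of 2-oxoglutarate dehydrogenase, and in Suclg2 and Sucla2, the GTP-forming and ATP-forming beta subunits of succinyl-CoA ligase. The fall was in Idh3a, the catalytic alpha subunit of the NAD-dependent isocitrate dehydrogenase. Suclg2 had 10.94, 11.07, 10.92, 11.03 and 11.17 in ShCtrl and 11.53, 11.49, 11.51, 11.85 and 11.24 in ShBNIP3. The groups did not overlap, with array 10 the lowest of its group (log2 0.50, SE 0.13, limma adjusted p = 0.0178). Sucla2 had 10.54, 10.50, 10.77, 10.45 and 10.65 in ShCtrl and 10.96, 11.11, 10.90, 10.93 and 10.90 in ShBNIP3. Its groups were separate too (log2 0.38, SE 0.11, limma adjusted p = 0.0333), and the adjusted p was under 0.05 in 2 of 10 fits with 1 array left out, those without ShCtrl array 3 or ShBNIP3 array 10 (at most 0.080), and 0.054 without arrays 4 and 10. Sucla2 and Suclg2 were not shown to differ in their change, with a mean within-array shift of -0.12 (exact permutation adjusted p = 0.48). Their common alpha subunit, Suclg1, had a difference of 0.03 (95% interval -0.24 to 0.30, limma adjusted p = 0.919), which turned to -0.01 without arrays 4 and 10.

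Ogdh had 12.96, 13.11, 13.31, 12.58 and 13.22 in ShCtrl and 13.27, 13.49, 13.83, 13.79 and 13.50 in ShBNIP3. ShBNIP3 array 6 lay below ShCtrl array 3, and the highest values were on arrays 8 and 9 (log2 0.54, SE 0.16, limma adjusted p = 0.0393). The adjusted p was over 0.05 without ShCtrl array 1, 2 or 4 or ShBNIP3 array 7, 8 or 9 (at most 0.098), and 0.061 without arrays 4 and 10. Dlst, the E2 subunit of the same complex, differed by 0.26 (95% interval 0.01 to 0.51, limma adjusted p = 0.175). The third subunit of that complex is Dld, described above. Citrate synthase, Cs, differed by 0.30 (95% interval -0.10 to 0.69, limma adjusted p = 0.343), with ShCtrl array 4 at 12.47 and the other controls at 13.11 to 13.60, and by 0.13 without arrays 4 and 10.

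Idh3a had 13.64, 13.61, 13.91, 13.72 and 14.07 in ShCtrl and 13.36, 13.25, 13.12, 13.42 and 13.47 in ShBNIP3. The groups did not overlap, with 0.14 between the lowest control and the highest knockdown array (log2 -0.47, SE 0.13, limma adjusted p = 0.0242). The adjusted p was over 0.05 without ShCtrl array 3 or 5 or ShBNIP3 array 7 or 8 (at most 0.064). The other subunits of this enzyme did not pass, with differences of 0.05 for Idh3b (95% interval -0.24 to 0.34) and -0.03 for Idh3g (95% interval -0.25 to 0.19). Idh3a minus Idh3g was 0.37, 0.38, 0.52, 0.56 and 0.76 in ShCtrl and 0.08, 0.02, -0.06, 0.12 and 0.24 in ShBNIP3. Each knockdown array was below each control array, with a mean change of -0.44 (exact permutation p = 0.0079, adjusted p = 0.021). Idh3a minus Idh3b changed by -0.52 (exact permutation p = 0.024, adjusted p = 0.044), where array 10 (0.51) overlapped the controls. That adjusted p was over 0.05 without ShCtrl array 1, 3 or 5 or ShBNIP3 array 8 or 9, at most 0.074, and also 0.074 after quantile normalization.

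Of 6 measured members from succinate to oxaloacetate, Sdhc alone passed. This share of 16.7% was close to the 15.5% of all probesets and below the 28.0% of the brighter ones described above. Sdhc had the largest difference of all 36 members. Sdhc encodes a membrane anchor subunit of succinate dehydrogenase, which holds heme b and the ubiquinone site together with Sdhd. It lay at 10.18, 10.18, 10.46, 9.86 and 10.22 on ShCtrl arrays 1 to 5 and at 9.24, 8.91, 9.39, 9.46 and 9.08 on ShBNIP3 arrays 6 to 10. The groups were 0.40 apart at their closest, between ShCtrl array 4 and ShBNIP3 array 9. The mean level was 10.18 ± 0.21 in ShCtrl (SD, n = 5) and 9.22 ± 0.23 (SD, n = 5) in ShBNIP3, a fall of 1.95-fold (log2 -0.96, SE 0.14, limma adjusted p = 0.0007). The adjusted p was at most 0.0027 with any 1 array left out.

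The other subunits of succinate dehydrogenase were not lower beyond their spread. Sdha, the flavoprotein that oxidises succinate, had 11.18, 11.57, 11.51, 11.11 and 11.48 in ShCtrl and 11.55, 11.56, 11.82, 11.65 and 11.33 in ShBNIP3, with overlapping groups (log2 0.21, 95% interval -0.08 to 0.51, limma adjusted p = 0.356). Sdhb, the iron-sulfur subunit, differed by -0.04 (95% interval -0.36 to 0.28, limma adjusted p = 0.911), and by 0.03 without ShBNIP3 array 10. Sdhd, the partner anchor, differed by -0.09 (95% interval -0.33 to 0.14, limma adjusted p = 0.662). The assembly factor Sdhaf2, which attaches FAD to Sdha, differed by 0.26 (95% interval -0.08 to 0.60, limma adjusted p = 0.328).

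Within arrays, Sdhc dropped against each of its partners. Sdhc minus Sdha was -1.00, -1.39, -1.05, -1.25 and -1.26 in ShCtrl and -2.31, -2.65, -2.43, -2.19 and -2.26 in ShBNIP3. The groups were separated by 0.80, more than the range of either (0.39 and 0.46), and the mean change was -1.18. Against Sdhb the change was -0.92 and against Sdhd -0.87, also with no overlap of the groups. The exact permutation p was 0.0079 for each of these 3 pairs (adjusted p = 0.021), the smallest this design allows, and the 3 pairs share Sdhc. They reuse the Sdhc values of the limma fit and are not separate evidence of its fall. Pairs of the other subunits with each other were not compared.

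**Figure D3:**
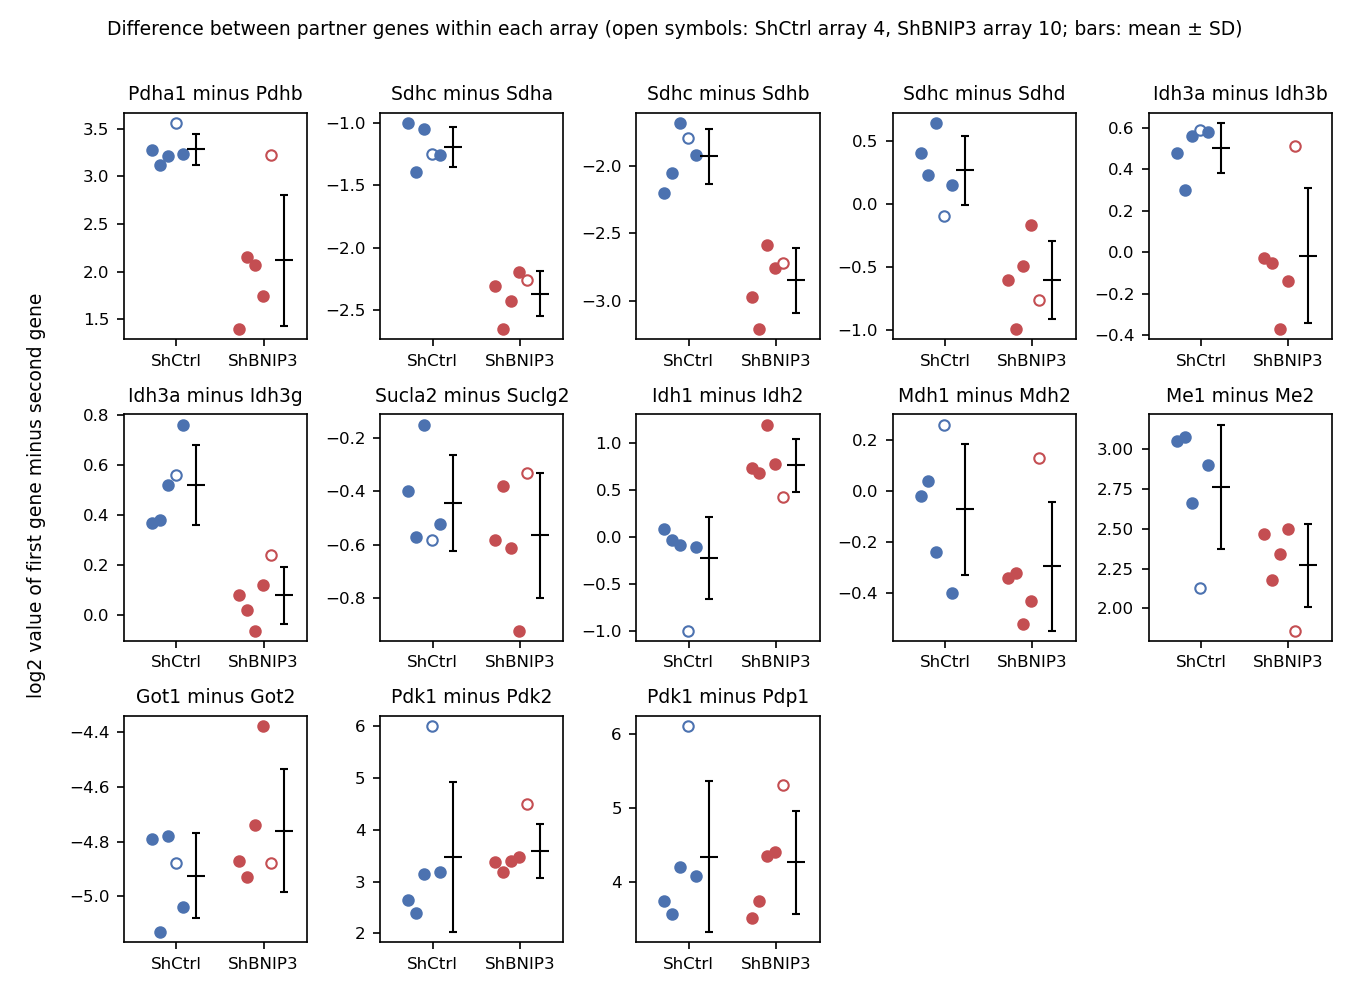
The difference between the log2 values of 2 partner genes within each array (y axis, own scale in each panel) is plotted for ShCtrl (blue) and ShBNIP3 (red), with the mean ± SD beside the points (n = 5) and open symbols for ShCtrl array 4 and ShBNIP3 array 10. The groups are separate for Sdhc against its 3 partners, for Idh3a minus Idh3g and for Idh1 minus Idh2, and they overlap in the 8 other pairs.

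Mdh2, the malate dehydrogenase of the cycle, had 13.47, 13.44, 13.83, 12.90 and 13.76 in ShCtrl and 14.19, 14.08, 14.13, 14.15 and 13.48 in ShBNIP3. ShBNIP3 array 10 was among the controls while arrays 6 to 9 were above all of them, and the difference did not pass (log2 0.52, 95% interval 0.11 to 0.94, limma adjusted p = 0.0921). It was 0.65 without array 10 (limma adjusted p = 0.024) and 0.51 without arrays 4 and 10 (limma adjusted p = 0.015). The cytosolic Mdh1 differed by 0.30 (95% interval 0.05 to 0.55, limma adjusted p = 0.108), with every ShBNIP3 value above every ShCtrl value. Mdh1 minus Mdh2 changed by -0.22 (exact permutation adjusted p = 0.29).

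Of the 5 NADP-linked enzymes and cytosolic partners, 1 fell and 1 rose. For comparison, 15.5% of all probesets passed, and 28.0% of the brighter ones described above. Whether the count in this group differs from these shares was not tested. Me1, the cytosolic malic enzyme that makes NADPH from malate, fell 1.78-fold, and Idh1, the cytosolic NADP-dependent isocitrate dehydrogenase, rose 1.64-fold. Me1 had 11.31, 11.30, 11.35, 10.55 and 11.18 in ShCtrl and 10.67, 10.33, 10.43, 10.34 and 9.77 in ShBNIP3. The groups overlapped through ShCtrl array 4, which lay below ShBNIP3 array 6 (log2 -0.83, SE 0.19, limma adjusted p = 0.0105). Without arrays 4 and 10 the difference was -0.84 (limma adjusted p = 0.00045). Idh1 had 12.45, 12.47, 12.38, 11.17 and 12.39 in ShCtrl and 12.79, 13.00, 13.04, 12.90 and 12.69 in ShBNIP3. All ShBNIP3 values were above all controls, but ShCtrl array 4 was 1.25 below the other controls and enlarged the mean difference (log2 0.71, SE 0.23, limma adjusted p = 0.0495). Without array 4 the rise was 0.46 (limma adjusted p = 0.015), and the adjusted p was over 0.05 without any other single array (at most 0.11).

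Idh2, the mitochondrial NADP-dependent isoenzyme, differed by -0.27 (95% interval -0.54 to 0.00, limma adjusted p = 0.19). Idh1 minus Idh2 was 0.09, -0.03, -0.08, -0.99 and -0.11 in ShCtrl and 0.73, 0.68, 1.19, 0.77 and 0.42 in ShBNIP3. The groups were separate, with a mean change of 0.99 (exact permutation p = 0.0079, adjusted p = 0.021), and 0.79 without array 4. The mitochondrial malic enzyme Me2 differed by -0.34 (95% interval -0.62 to -0.06, limma adjusted p = 0.105), and Me1 minus Me2 by -0.50 (exact permutation adjusted p = 0.10, or 0.021 without array 4). Neither pyruvate carboxylase, Pc, which refills the cycle with oxaloacetate, nor the mitochondrial PEP carboxykinase Pck2, which withdraws it, passed. Pc differed by -0.11 (95% interval -0.43 to 0.21, and 0.05 without arrays 4 and 10) and Pck2 by -0.35 (95% interval -0.85 to 0.16).

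Of the 4 members that connect glutamate with the cycle, 3 fell and 0 rose, where 7.87% and 7.61% of all probesets did and 28.0% of the brighter 50% passed. Their median difference was -0.58, and Glud1, one of the 3, did not pass in 8 of 10 fits with a single array removed. Got2, the mitochondrial aspartate aminotransferase, and Got1, its cytosolic counterpart, are the enzymes of the malate-aspartate shuttle that exchange glutamate and aspartate. Got2 had 13.53, 13.69, 13.72, 13.62 and 13.70 in ShCtrl and 12.75, 12.79, 12.89, 12.80 and 13.28 in ShBNIP3. The controls were within 0.19 of each other and all knockdown arrays were lower, array 10 by the least (1.68-fold, log2 -0.75, SE 0.12, limma adjusted p = 0.00138). Got1 had 8.74, 8.56, 8.94, 8.74 and 8.66 in ShCtrl and 7.88, 7.85, 8.15, 8.42 and 8.40 in ShBNIP3. Its groups did not overlap either (1.5-fold, log2 -0.59, SE 0.14, limma adjusted p = 0.0142). The falls of Got1 and Got2 were not shown to differ in size, with a within-array shift of 0.16 (exact permutation adjusted p = 0.29).

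Glud1, glutamate dehydrogenase, had 15.17, 15.02, 15.21, 15.11 and 15.25 in ShCtrl and 14.74, 14.82, 14.89, 14.68 and 14.93 in ShBNIP3. All knockdown values were below all control values, by 0.09 at the closest (log2 -0.34, SE 0.11, limma adjusted p = 0.0441). The adjusted p was under 0.05 in 2 of 10 fits with 1 array left out, those without ShCtrl array 4 or ShBNIP3 array 10 (at most 0.11), and 0.074 after quantile normalization. Gpt2, the mitochondrial alanine aminotransferase, had 9.07, 9.11, 9.27, 7.53 and 8.93 in ShCtrl and 8.60, 8.30, 8.30, 8.50 and 7.36 in ShBNIP3. ShCtrl array 4 and ShBNIP3 array 10 were the lowest of their groups, at 1.56 and 1.06 below the rest. With them the difference was -0.57 (95% interval -1.27 to 0.12, limma adjusted p = 0.289), and without them it was -0.67 (limma adjusted p = 0.0030). Leaving out these far values narrowed the spread (SE 0.32 with them and 0.13 without), so the smaller p-value is not a separate test.

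Sequence upstream of 4 of the genes that fell is shown because they hold the largest falls with separated groups, the PDH and succinate dehydrogenase subunits and the transaminase pair. RefSeq promoters of assembly GRCr8 matched 32 of the 36 measured members, and the 250 bases before the start are given 5′ to 3′ on the gene's strand, for Sdhc (chr13:86098026-86098275, minus strand), Pdha1 (chrX:38508908-38509157, plus strand), Got1 (chr1:252329872-252330121, minus strand) and Got2 (chr19:9180178-9180427, plus strand). Capitals mark a match, on either strand, to 1 of 5 motifs searched.
Sdhc: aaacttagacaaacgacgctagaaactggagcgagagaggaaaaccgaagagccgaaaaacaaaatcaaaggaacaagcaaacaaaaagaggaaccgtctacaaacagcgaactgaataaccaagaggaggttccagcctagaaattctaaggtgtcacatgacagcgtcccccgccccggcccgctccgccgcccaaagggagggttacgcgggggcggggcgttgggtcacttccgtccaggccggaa
Pdha1: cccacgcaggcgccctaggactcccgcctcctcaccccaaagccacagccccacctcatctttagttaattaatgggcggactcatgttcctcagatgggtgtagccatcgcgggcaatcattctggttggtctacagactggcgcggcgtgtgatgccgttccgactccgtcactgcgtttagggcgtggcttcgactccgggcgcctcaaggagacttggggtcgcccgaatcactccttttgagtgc
Got1: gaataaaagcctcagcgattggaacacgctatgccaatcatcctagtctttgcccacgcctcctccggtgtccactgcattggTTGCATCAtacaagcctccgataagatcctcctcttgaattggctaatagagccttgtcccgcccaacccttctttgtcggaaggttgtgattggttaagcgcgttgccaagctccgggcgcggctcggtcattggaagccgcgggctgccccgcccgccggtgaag
Got2: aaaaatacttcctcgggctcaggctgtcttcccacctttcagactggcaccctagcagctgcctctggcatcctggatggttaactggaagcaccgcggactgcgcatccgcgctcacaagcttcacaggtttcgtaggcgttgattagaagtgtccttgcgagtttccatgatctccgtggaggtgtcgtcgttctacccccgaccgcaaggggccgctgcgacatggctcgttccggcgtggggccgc

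The motifs were ACGTG (a form of the HIF site core), the NRF1 consensus, AAGGTCA (ERR), CCGGAAG (ETS factors) and TGATGCAA (a composite site of ATF4 with C/EBP). Other forms of the HIF core, such as GCGTG, were not searched, so a stretch without ACGTG may still hold one. No match in the printed sequences overlapped another. The match in Got1 is to TGATGCAA, read on the opposite strand, a motif held by 0.693% of the 33469 upstream stretches of this length in the table. It was in 1 of the 32 members and in 0.642% of the 12924 stretches of genes named on the array (array genes). CCGGAAG was in 8 members, 7.27% of all stretches and 11.4% of those of array genes. ACGTG was in 7 members, 16.6% of all stretches and 19.2% of those of array genes. The NRF1 consensus was in 2 members, 3.75% of all stretches and 6.59% of those of array genes. AAGGTCA was in 0 members, 3.99% of all stretches and 2.96% of those of array genes. Of 6 fallen members with a promoter, 1 (Got1) held TGATGCAA, 1 (Glud1) held CCGGAAG and 0 held ACGTG. Of 5 risen members, 1 (Ogdh) held ACGTG and 1 (Sucla2) held the NRF1 consensus. A match describes the letters in the window only.

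**Figure D4:**
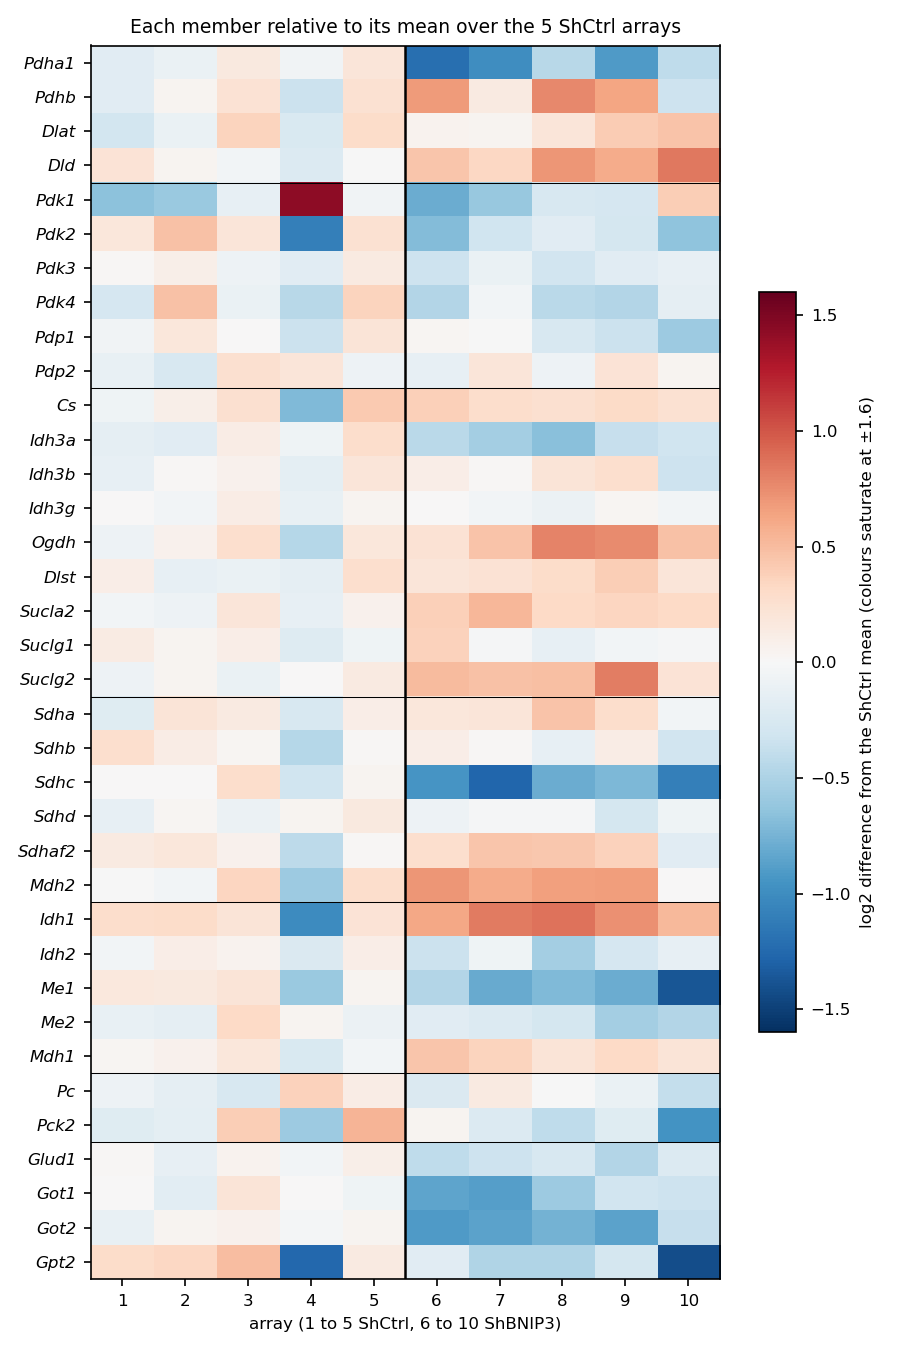
Colour gives the log2 difference of each of the 36 members (rows) from its mean over the 5 ShCtrl arrays, on each array (columns 1 to 5 ShCtrl, 6 to 10 ShBNIP3), with lines between the role groups. Sdhc, Pdha1, Got1, Got2 and Idh3a are among the members below the control mean on all 5 ShBNIP3 arrays. So are members that did not pass the test, such as Me2, Pdk2, Pdk3, Idh2 and Gpt2. ShCtrl array 4 stands out in Pdk1, Pdk2, Idh1 and Gpt2.

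The arrays that stand apart did so in the members as well. On ShCtrl array 4, 29 of 36 members lay below the mean of the other controls, with a median deviation of -0.28 and a range from -1.56 (Gpt2) to 1.78 (Pdk1). In the brighter 50% of all probesets the median on that array was -0.11, with 59.9% below. On ShBNIP3 array 10, 24 members lay below the rest of the group, with a median of -0.09 and a range from -1.06 (Gpt2) to 0.87 (Pdk1). In the brighter 50% of all probesets its median was -0.03, with 53% below.

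Genes around these enzymes changed in both directions. Of 56 further genes listed for transport, glutamine use, iron-sulfur and lipoate assembly and branched-chain oxidation, 46 were measured. Of these, 9 fell and 5 rose (30.4%, where 15.5% of all probesets, 17.1% of those with a gene name and 28.0% of the brighter 50% passed), 8 were at background on all arrays, and the median difference was 0.02. Without arrays 4 and 10, 13 fell and 6 rose, among them all 14, where 10.1% of all probesets fell and 9.84% rose. The share of the brighter 50% was not computed for that fit.

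Assembly factors for iron-sulfur clusters, which succinate dehydrogenase and lipoate synthase need, held the largest rise and a large fall. Bola3, which helps hand clusters to lipoate synthase and respiratory proteins, rose 2.33-fold (log2 1.22, SE 0.17, limma adjusted p = 0.00045). It had 13.33, 13.04, 13.13, 12.69 and 13.30 in ShCtrl and 14.56, 14.58, 13.96, 14.49 and 13.99 in ShBNIP3, with a gap of 0.63 between the groups. Isca2, an assembly protein for mitochondrial iron-sulfur clusters, fell 2.15-fold (log2 -1.10, SE 0.16, limma adjusted p = 0.00053). It had 8.85, 8.58, 8.95, 8.42 and 8.80 in ShCtrl and 7.78, 7.80, 7.14, 7.53 and 7.84 in ShBNIP3, and the groups did not overlap.

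Glutamine carriers were among the falls. Slc38a1, a plasma membrane glutamine transporter, had 13.93, 14.04, 13.99, 14.54 and 13.94 in ShCtrl and 12.70, 12.67, 12.78, 12.61 and 13.80 in ShBNIP3. Arrays 6 to 9 lay within 0.17 of each other and array 10 stayed close to the controls (2.26-fold, log2 -1.18, SE 0.22, limma adjusted p = 0.00305). Acly, which splits exported citrate in the cytosol, fell 2.02-fold (log2 -1.01, SE 0.13, limma adjusted p = 0.00017). Adhfe1, a mitochondrial hydroxyacid-oxoacid transhydrogenase, was at background on all 5 ShBNIP3 arrays and on 1 ShCtrl array and was at least 1.30-fold lower there (limma adjusted p = 0.00213). Further rises were in Aldh4a1, which completes the conversion of proline to glutamate (1.74-fold), and in branched-chain 2-oxoacid oxidation, with the E1 beta subunit Bckdhb (1.62-fold) and the activating phosphatase Ppm1k (1.56-fold).

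The 6 remaining genes that passed were named after their values were seen. The glutamine transporters Slc38a2 and Slc1a5 fell 1.7-fold and 1.77-fold, the latter with overlapping groups, 2 ShBNIP3 arrays at background and an adjusted p of 0.0475 in limma that passed 0.05 when 1 array was omitted only for ShCtrl array 2 or ShBNIP3 array 10. The mitochondrial glutamate carrier Slc25a22 fell 1.49-fold, the dicarboxylate carrier Slc25a10 1.69-fold and the lactate dehydrogenase subunit Ldha 1.76-fold, and the glutaredoxin Glrx5 of the iron-sulfur pathway rose 1.52-fold. The mitochondrial pyruvate carrier genes Mpc1 and Mpc2 did not pass, with differences of 0.19 and 0.26.

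**Figure D5:**
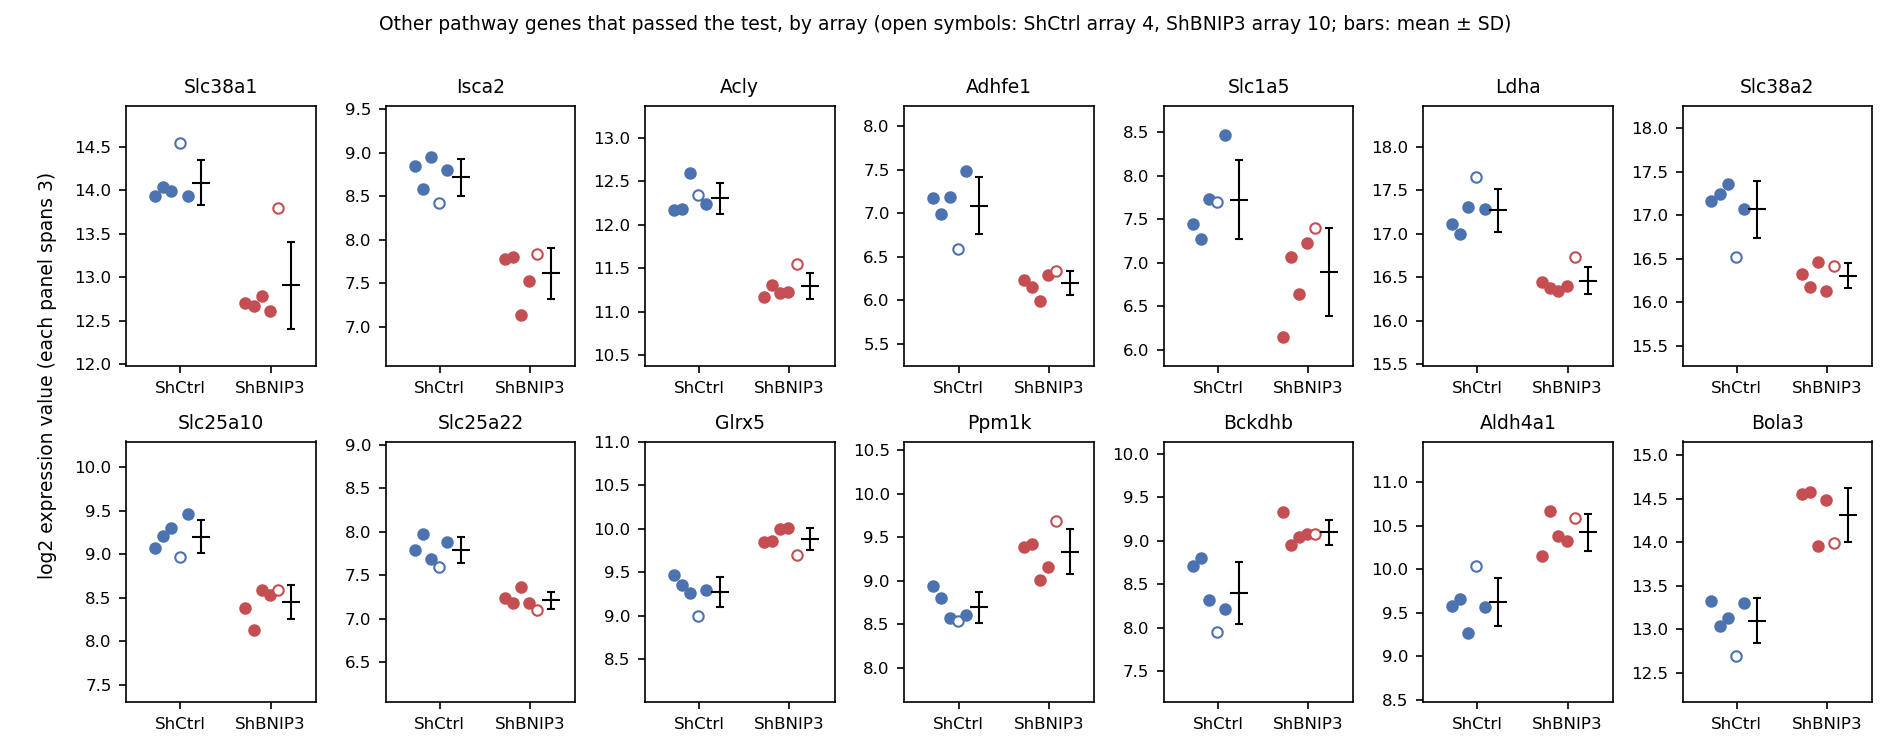
The log2 level (y axis, a span of 3 in each panel) is plotted for each array of ShCtrl (blue) and ShBNIP3 (red) for the 14 further pathway genes that passed the test, with the mean ± SD beside the points (n = 5) and open symbols for ShCtrl array 4 and ShBNIP3 array 10. Slc1a5 is the gene whose groups overlap, and in Slc38a1 array 10 (13.80) lies far from the other ShBNIP3 arrays (12.61 to 12.78).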

How the data were processed

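RNA of 10 samples was hybridised to whole-transcript arrays. The authors deposited log2 values normalized across arrays with signal space transformation and RMA, per the labels, with the Transcriptome Analysis Console, per the submitters' processing notes, which give no version. The labels name no batch. The array's genome build is not given in the sources used here, so no gene coordinates are printed.

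Of 24834 probesets, 1646 were controls and 23188 were tested, and 15049 of these had a gene name. All 15049 Entrez identifiers matched the RefSeq table of assembly GRCr8. limma 3.58.1 in R 4.3.3 compared the 5 ShBNIP3 with the 5 ShCtrl arrays over all 23188 probesets without covariates, two-sided, taking 0.05 as the threshold after Benjamini-Hochberg adjustment. The script was tested on simulated data with 200 changed genes. A value was at background when it was not above the 95th percentile of the 23 antigenomic control probesets of its array, and a gene at background on all arrays of a group has only a bound there. For 13 pairs of partner genes, the difference within each array was compared by an exact two-sided permutation test. The pairs reuse values of the limma fit. For succinate dehydrogenase and the NAD-dependent isocitrate dehydrogenase, each pair holds Sdhc or Idh3a, which both fell. The number of arrays limits the precision.

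Promoter sequences came from RefSeq, assembly GRCr8, and motifs were searched on both strands. The members and lists were chosen with earlier results of these data known. By rule the text names Bnip3, every member that passed, the partners in pairs, the kinases and phosphatases, and up to 4 other pathway genes in each direction. The alternatives were quantile normalization, median centring, a background filter, a trended and robust prior, array weights, another probeset, stricter thresholds, and fewer arrays.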

Additional observations from a re-analysis of the deposited data

Results flagged for a closer look

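Among the 5 arrays of a group, an array was set apart when its gap to the nearest other, divided by the group's range, was above Dixon's critical value of 0.71. Of 100 checks over members, pairs and Bnip3, 17 passed it, where chance gives about 1 in 20. The checks are not independent, because they share arrays and the pairs reuse values of members, so the excess was not tested. Of the 17, 9 were on ShCtrl array 4, 5 on ShBNIP3 array 10 and 3 on other arrays.

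On ShCtrl array 4, Pdk1 was the highest control (14.14, others 12.06 to 12.66, ratio 0.712). It was the lowest control for Pdk2 (8.15, others 9.42 to 9.71, ratio 0.811), Idh1 (11.17, others 12.38 to 12.47, ratio 0.932), Me1 (10.55, others 11.18 to 11.35, ratio 0.786), Gpt2 (7.53, others 8.93 to 9.27, ratio 0.804) and the assembly factor Sdhaf2 (10.55, others 10.98 to 11.15, ratio 0.716). Its Pdk1 minus Pdk2 was 5.99 (others 2.40 to 3.18, ratio 0.783), its Pdk1 minus Pdp1 was 6.11 (others 3.57 to 4.20, ratio 0.751) and its Idh1 minus Idh2 was -0.99 (others -0.11 to 0.09, ratio 0.821).

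On ShBNIP3 array 10, Mdh2 was the lowest of its group (13.48, others 14.08 to 14.19, ratio 0.847), as were Gpt2 (7.36, others 8.30 to 8.60, ratio 0.755) and Sdhaf2 (10.78, others 11.23 to 11.41, ratio 0.716). Got2 was the highest (13.28, others 12.75 to 12.89, ratio 0.749), and so was Pdk1 minus Pdk2 (4.49, others 3.19 to 3.48, ratio 0.776).

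The other cases were Sucla2 on ShBNIP3 array 7 (11.11, others 10.90 to 10.96, ratio 0.735), Suclg1 on ShBNIP3 array 6 (11.17, others 10.67 to 10.78, ratio 0.778) and Sdhd on ShBNIP3 array 9 (9.63, others 9.83 to 9.90, ratio 0.750).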

How the results depend on the processing

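No paired analysis was possible because the title numbers 1 to 10 are not shared between the groups. Of 12 members that passed, each kept its direction in every alternative run, and 154 of their 192 recomputed values also stayed past the threshold. The member count was 11 to 14 under the other normalizations, the background filter, the other prior and the array weights, and 13 without arrays 4 and 10. Each member has 1 probeset, so the other probeset choice could not change this count and tests nothing. An adjusted p under 0.01 left 4 members (1 higher, 3 lower). A 2-fold minimum left 0 members (0 higher, 0 lower) and 969 probesets (333 higher, 636 lower). With 1 array left out, members passing numbered 7 to 13 (higher 2 to 6, lower 5 to 9), all probesets 2746 to 3960 (higher 1314 to 1875, lower 1432 to 2116), other pathway genes 13 to 15 and pairs 5 to 9, on fewer samples.

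Some differences that did not pass turned sign or came to 0 after rounding, and the cause was not tested. Without arrays 4 and 10, Suclg1 went to -0.01, Pc to 0.05 and Pdk1 minus Pdp1 to 0.10, and Suclg1 went to 0 with array weights. With 1 array left out, the range was -0.05 to 0.07 for Suclg1, -0.48 to 0.05 for Pdk1, 0 to 0.15 for Idh3b, -0.06 to 0 for Idh3g, -0.15 to 0.74 for Pdk1 minus Pdk2 and -0.34 to 0.36 for Pdk1 minus Pdp1. Sdhb reached 0.03 without array 1 or 10 and Pdp2 ranged from -0.02 to 0.11.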
